A study of Mus musculus with 11 samples.

Results

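Undifferentiated mouse embryonic stem cells without connexin43 and connexin45 were set against stem cells of the control line. The comparison rests on 4 of the 11 bead arrays in the series, 2 of each line, chosen by their labels alone. The control cells, labelled Cx43/45 flox, are a male C57BL/6 line. The deleted cells, labelled Cx43/45 del, are also male C57BL/6, lack exon 3 of both connexin genes and carry lacZ under the Cx43 promoter and eGFP under the Cx45 promoter. Each stem cell sample was a pellet from a single culture well, grown with leukemia inhibitory factor on a layer of mouse embryonic fibroblasts. Embryoid bodies of both lines, harvested on day 6 from pools of about 300, contributed 3 control and 4 deleted arrays to the estimate of spread and are given beside the stem cells where stated. Each genotype is 1 described line, so every difference below is one between 2 lines. The labels do not say which cultures the arrays came from, so the p-values reflect variation among these samples, which may be technical.

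Connexins are membrane proteins that assemble into channels, and channels of adjoining cells dock to form gap junctions, through which ions and small metabolites pass directly. Connexin43 is the best studied connexin of embryonic stem cells, and connexin45 is found in many early embryonic tissues. Stem cells held undifferentiated by leukemia inhibitory factor grow as coupled colonies and form layered embryoid bodies once the factor is removed. The files identify probes by array identifier and pair none with a gene. Probes are therefore described by identifier, the connexin genes and stem cell markers were not analysed here, and the share of feeder fibroblasts in each pellet was not tested. In such bulk samples, fewer cells of a type and less RNA per cell cannot be told apart.

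The 4 stem cell arrays detected between 39.7% and 42.5% of 45281 probes at a detection p-value under 0.05. Mean raw intensity ran from 405 to 496 units and was highest on deleted replicate 1, which also detected the most probes. After quantile normalization of all 11 arrays, the 23268 probes detected on at least 2 arrays were kept and tested on the log2 scale. For arrays the number of samples limits the precision.

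The closest of the 4 stem cell arrays were 2 of different lines. The log2 difference over kept probes had a standard deviation of 0.263 within the control pair and 0.339 within the deleted pair. Across lines it was 0.162 between the replicates numbered 2, the tightest of the 6 pairs, and 0.449 between the replicates numbered 1, the widest. Control replicate 2 and deleted replicate 2 differed by at least 2-fold on 3 probes, against 116 probes within the control pair and 357 within the deleted pair. Deleted replicate 1 was the array that stood apart. In a principal component analysis of the 4 arrays it lay at 39.5 on the first component, which held 66.1% of the variance. The other arrays followed at -1.93 for deleted replicate 2, -9.23 for control replicate 2 and -28.3 for control replicate 1. Spread grew with brightness. In the dimmest of 4 equal bins of probes the deleted pair had a standard deviation of 0.129 and no 2-fold difference, and in the brightest bin 0.446 with 165 such probes.

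**Figure D1:**
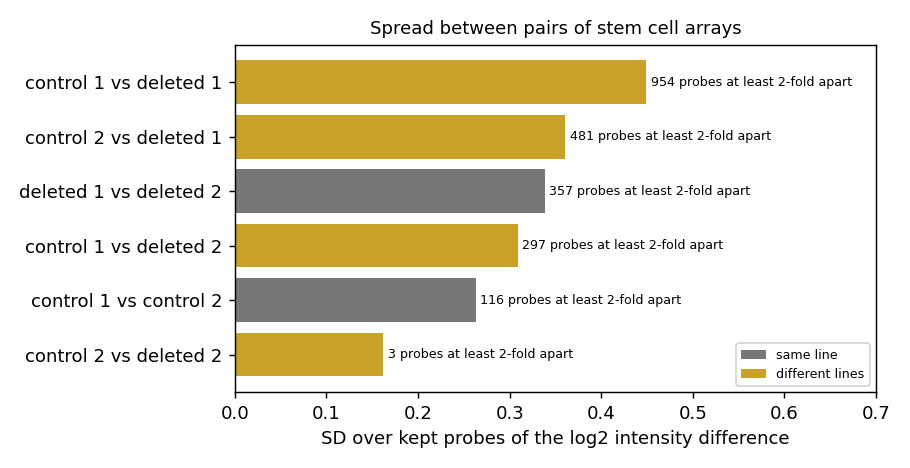
Standard deviation over 23268 kept probes of the log2 intensity difference for each of the 6 pairs of stem cell arrays (bars), with the number of probes at least 2-fold apart written beside each bar and colour marking pairs of the same or of different lines. The bar for control 2 against deleted 2 is the shortest at 0.162, and every pair with deleted 1 is at 0.339 or above.

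Before differentiation, no probe passed as different between the lines. In the limma fit, 0 of 23268 probes had a Benjamini-Hochberg adjusted p under 0.05 (0%), with a lowest value of 0.51. Before adjustment, 2091 probes had a p under 0.05 (8.99%), 1126 higher in deleted cells (4.84%) and 965 lower (4.15%). This count depended on the replicates numbered 1. It fell to 789 without deleted replicate 1 and to 579 without control replicate 1, or 3.44% and 2.52% of the probes tested. Without deleted replicate 2 it was 4034 with 496 adjusted calls, and without control replicate 2 it was 2843 with 27 calls. In each of these fits the lone array was assumed to vary like the other groups. With 2 arrays against 2, an exact two-sided permutation test of a single probe cannot go below 0.333.

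The arrays bounded the difference for most probes. The 95% confidence interval of deleted minus control lay wholly within a 2-fold change for 21213 probes, or 91.2%. That share was 99.6% in the dimmest bin, where array background compresses differences, and 82.5% in the brightest bin, above a mean of 493 units. With limma's background correction (neqc) 14044 probes, or 60.4%, were bounded in this way. The median half-width of the interval was 0.32 on the log2 scale.

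Fitted differences of at least 2-fold were upward on 126 probes (0.542%) and downward on 5 (0.0215%). The split was 584 to 152 after background correction. It was 25 to 6 without deleted replicate 1 and 536 to 81 without deleted replicate 2. Without control replicate 1 it was 64 to 0, and without control replicate 2 it was 326 to 137. Each of the 4 arrays thus moved the upward count, which was the larger in each fit. The downward count barely moved without deleted replicate 1 and moved without each of the other arrays. Deleted replicate 1 was the highest of the 4 arrays on 125 of the 126 probes, against 29.5% of all kept probes. Control replicate 1 was the lowest on 123 of the 126, against 6675 of all 23268 kept probes. The median difference of the 126 probes from the control mean was 1.83 on deleted replicate 1 and 0.67 on deleted replicate 2, both log2. Both deleted arrays were at least 2-fold above the control mean on 14 of the probes, and deleted replicate 1 alone on the other 112.

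The probe with the largest positive difference was ILMN_2918479, at 878 and 1406 normalized units on the control arrays and at 8818 and 2953 on the deleted arrays. The lines did not overlap, yet the deleted arrays were 2.99-fold apart from each other. Its log2 difference was 2.20 ± 0.80 (SE, limma adjusted p = 0.51), and 1.41 without deleted replicate 1. ILMN_1244312 read 205 and 225 units in control cells against 1775 and 451 in deleted cells. Here the control pair was tight and deleted replicate 1 exceeded its partner 3.93-fold. ILMN_1246058 read 397 and 677 units in control cells against 3307 and 1186 in deleted cells. Its log2 difference of 1.93 ± 0.39 (SE) had a 95% interval of 1.06 to 2.81 (limma adjusted p = 0.51). The interval excluded a 2-fold change or less, but it is not adjusted for the number of probes. The next probes of this list, ILMN_2771176, ILMN_1217826 and ILMN_2691187, had log2 differences of 1.90, 1.78 and 1.76, none past the threshold. Without deleted replicate 1 the 6 differences ranged from 0.82 to 1.41. Without deleted replicate 2 they ranged from 2.49 to 3.05.

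The largest negative differences, listed under the same filter, had control replicate 1 as the high array. ILMN_2588055 read 1020 and 349.7 units in control cells and 219 and 268 in deleted cells, a log2 difference of -1.30 ± 0.43 (SE, limma adjusted p = 0.51). ILMN_2860932, among the brighter probes, read 21673 and 7131 units in control cells and 6419 and 4702 in deleted cells. Control replicate 2 thus lay nearer to the deleted arrays than to its own partner on both probes, and without control replicate 1 the differences were -0.53 and -0.38. ILMN_2846865, ILMN_2566477, ILMN_2445958 and ILMN_2606667 had log2 differences from -1.18 to -0.97. Without control replicate 1 the 6 differences of this list ranged from -0.69 to -0.38. Arrays of the lines did not overlap on 4170 probes with deleted cells higher (17.9%) and on 4781 with deleted cells lower (20.5%). With 2 arrays against 2, a random order of a probe's arrays separates the lines, in either direction, with probability 0.333.

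**Figure D2:**
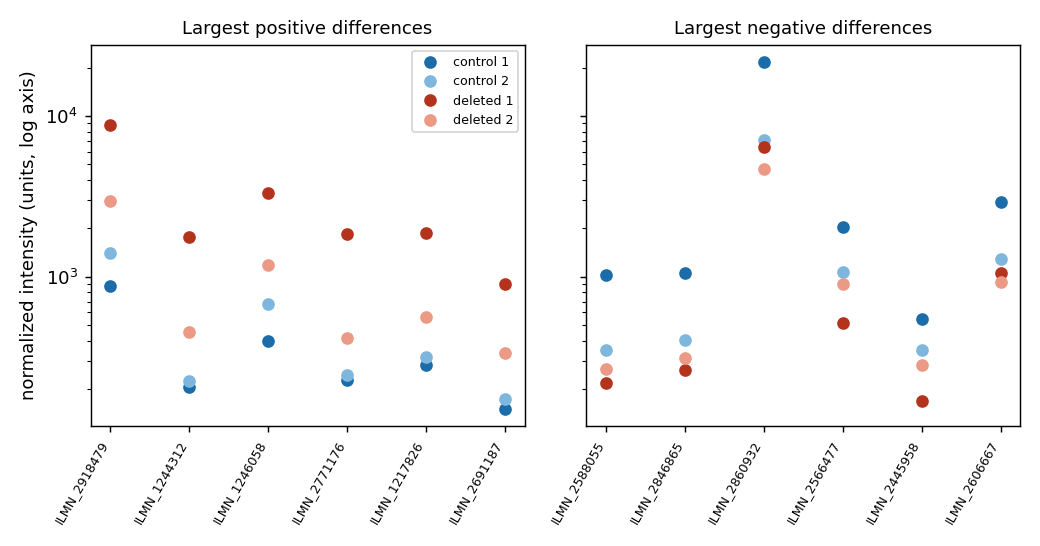
Normalized intensity (log axis) on each of the 4 stem cell arrays for the 6 probes with the largest positive and the 6 with the largest negative difference among probes whose lines do not overlap (points, coloured by array). On the left deleted 1 is the highest point for every probe, such as 8818 units for ILMN_2918479, and on the right control 1 is the highest, such as 21673 units for ILMN_2860932.

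Probes with the smallest unadjusted p-values showed smaller but more even differences. A small p favours probes with little spread within the pairs. The evenness, and how little the differences moved when an array was left out, thus follow in part from the choice. ILMN_2739760 read 241.0 and 254 units in control cells and 386 and 356 in deleted cells, a log2 difference of 0.58 ± 0.08 (SE, limma adjusted p = 0.51). The gap between the lines exceeded the gap within either pair, and without deleted replicate 1 the difference was 0.52. ILMN_1213736 read 157 and 174 units against 253 and 246, and ILMN_2980661 read 262 and 341 units against 469 and 493. ILMN_3143078 read 407 and 542 units in control cells and 1147 and 819 in deleted cells, a log2 difference of 1.05 ± 0.17 (SE, limma adjusted p = 0.51). Downward, ILMN_2752275 read 190 and 174 units in control cells and 128 and 114 in deleted cells, a log2 difference of -0.59 ± 0.10 (SE, limma adjusted p = 0.51). It was detected on both control arrays and on 1 of 2 deleted arrays, so its fold is limited by background. ILMN_3133835, ILMN_2546888 and ILMN_2918469 had log2 differences of -0.51, -0.54 and -0.50. Over these 8 probes the size of the difference stayed between 0.40 and 0.84 when either replicate 1 was left out. With any of the 11 arrays left out it reached at most 1.29, for ILMN_3143078.

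Few transcripts crossed the detection limit with genotype. A detection p-value under 0.01 on both deleted arrays and of at least 0.05 on both control arrays was met by 76 probes (0.327%), and the reverse by 23 (0.0988%). ILMN_2647627 read 125 and 128 units in control cells and 255 and 173 in deleted cells. ILMN_2628657 read 129 and 128 units against 295 and 142, and ILMN_2631939 read 119.7 and 117 units against 220.1 and 154. Deleted replicate 1 was the higher of the pair each time. With an array left out, the log2 difference ranged from 0.45 to 1.03, from 0.14 to 1.22 and from 0.37 to 0.91 on these probes, in that order. In the other direction ILMN_2617016 read 221 and 146 units in control cells and 121 and 115 in deleted cells. ILMN_2659651 and ILMN_2434144 had log2 differences of -0.43 and -0.41. Of the 76 probes, all 3 arrays of control bodies detected 44 and all 4 arrays of deleted bodies detected 38 at the same limit of 0.01. At a limit of 0.05, 6 were undetected on every body array, as were 2.47% of all kept probes. None of the 23 was detected at 0.01 on every embryoid body array of either line. At 0.05, ILMN_2434144 was detected on 3 of 3 control body arrays. Of all kept probes, 61.4% were detected at 0.01 on every control body array and 63.5% on every deleted body array.

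Within the deleted pair, 313 probes were at least 2-fold higher on replicate 1 (1.35%) and 44 at least 2-fold higher on replicate 2 (0.189%). This split was 569 to 7 under median scaling and 1227 to 559 after background correction. The widest was ILMN_1252076, at 2084 and 291 units on the deleted arrays and 403 and 311 on the control arrays, a 7.15-fold gap on the deleted pair. ILMN_2875585 read 1097 against 241.0 units and ILMN_2771176 read 1859 against 417. On all of these the high value came from 1 array, and its partner lay within 2-fold of both control arrays. In the other direction ILMN_1377923 read 9798 and 25837 units on the deleted arrays and 25774 and 22144 on the control arrays. ILMN_2942011 read 306 and 864 units, and ILMN_2999627 read 175 and 445. The control arrays were apart in the same way on the last 2 probes, at 346 and 1021 units and at 142 and 366. Within the control pair the widest probes were ILMN_1219935, at 815 and 249 units, and ILMN_2860932. In the other direction they were ILMN_2710354, at 274 and 1005 units, and ILMN_2710353, at 219.6 and 775. The deleted arrays read 3149 and 872 units on ILMN_2710354 and 2590 and 747 on ILMN_2710353, so that replicate 1 held the lowest value in one line and the highest in the other.

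Probes that differed within the deleted pair were set beside the stage difference of the control line, a comparison that uses no deleted stem cell array as a group mean. Of the 313 probes, 191 rose in the control line on the way to embryoid bodies (61.0%, limma adjusted p under 0.05) and 19 fell. Over all kept probes 18.3% rose and 19.4% fell. Those shares are not matched for brightness. Probes 2-fold apart within the deleted pair numbered 0, 17, 175 and 165 from the dimmest to the brightest bin. Of the 44 probes that were low on deleted replicate 1, 30 fell (68.2%) and 1 rose, ILMN_3118071. The median control line difference was 1.32 for the 313 probes and -1.17 for the 44, against -0.01 over all kept probes, all log2. Without control stem cell replicate 1, 139 of 316 probes rose (44.0%) and 22 of 45 fell (48.9%), against 10.8% and 12.1% of all probes in that fit. Without control stem cell replicate 2, 167 of 314 rose (53.2%) and 18 of 43 fell (41.9%), against 13.5% and 15.0%. At the 2-fold limit, the nearest probe inside the longer list had a log2 difference of 1.001 and the nearest outside 0.999. The corresponding comparison for the control pair uses the stage difference of the deleted line. Of 68 probes at least 2-fold higher on control replicate 1 (0.292%), 17 fell in the deleted line and 1 rose, ILMN_2993109. Of 48 probes higher on control replicate 2 (0.206%), 18 fell and 1 rose, ILMN_1259869. In the deleted line 11.8% of all kept probes fell and 10.5% rose. The labels do not give culture, feeder content or array run per array, and their part in these within-pair differences was not tested.

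**Figure D3:**
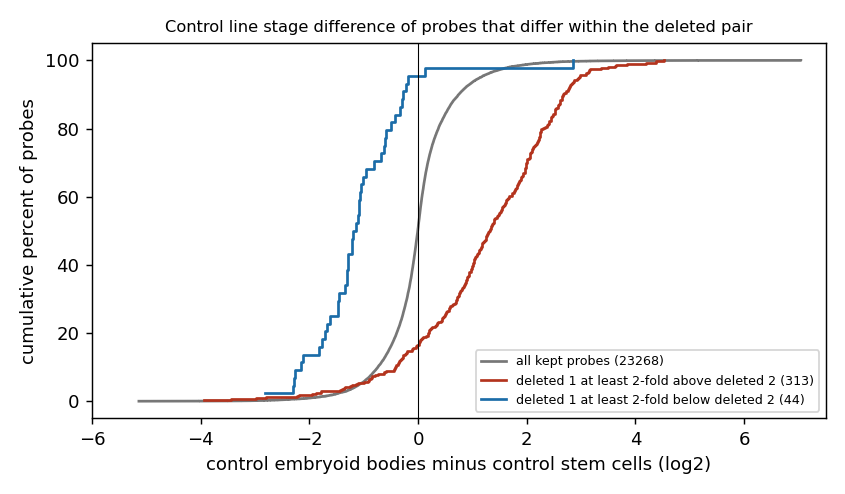
Cumulative percent of probes by the difference of control embryoid bodies minus control stem cells (log2, horizontal axis), for all 23268 kept probes, for 313 probes at least 2-fold higher and 44 at least 2-fold lower on deleted stem cell replicate 1 than on replicate 2. The curve of the 313 probes lies to the right of all probes with a median of 1.32, and the curve of the 44 lies to the left with a median of -1.17.

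Genotype differences of stem cells were set beside those of embryoid bodies, which come from other arrays. Of the 1126 probes higher in deleted stem cells at an unadjusted p under 0.05, 78 were higher in deleted bodies by the adjusted test (6.93%) and 248 lower (22.0%). Over all kept probes 11% were higher and 11.6% lower in deleted bodies. Of the 965 probes lower in deleted stem cells, 189 were higher in deleted bodies (19.6%) and 62 lower (6.42%). In both lists more members passed in bodies with the opposite sign than with the same sign. The p-values of both stages share each probe's spread over all 11 arrays, so the choice of the lists is not independent of how many members passed in bodies. Without deleted replicate 1 the lists were 463 and 326 probes, with 7.99% higher and 25.5% lower in bodies for the first and 21.2% higher and 9.20% lower for the second. Under median scaling the first list gave 40 higher and 133 lower in bodies, and the second 142 higher and 22 lower. With each stem cell array left out in turn, the shares of opposite sign in bodies ranged from 18.0% to 25.5% and those of the same sign from 6.07% to 10.5%.

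ILMN_3143078 was one probe of opposite sign. In control bodies it read 4213, 4890 and 4818 units, and in deleted bodies between 1426 and 1533 with a median of 1517. Bodies of the 2 lines did not overlap, and the log2 difference was -1.63 ± 0.13 (SE, limma adjusted p = 2.9e-05), against 1.05 in stem cells. The difference between stages was -2.67 ± 0.22 (SE, limma adjusted p = 0.00015). The probe was named for a small stem cell p, which uses its spread over all 11 arrays, so neither its body test nor the test between stages is independent of the choice.

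A set of 6 probes was named for the smallest stem cell p among those with the same sign in both stages and an adjusted call in bodies, so their direction in both stages is fixed by the choice. ILMN_2476405 read 836 and 865 units in control stem cells and 2575 and 1430 in deleted stem cells. In bodies it read 500.3, 595 and 495 units in control samples and between 1647 and 1713 in deleted ones. Deleted samples lay above control samples at both stages, with log2 differences of 1.17 ± 0.22 (SE, limma adjusted p = 0.51) in stem cells and 1.68 ± 0.16 (SE, limma adjusted p = 9.3e-05) in bodies. ILMN_2752275, described above, read 164, 169.6 and 162 units in control bodies and between 103 and 118 in deleted bodies. It was detected on 3 of 3 control and 0 of 4 deleted body arrays. Its difference was -0.59 in stem cells and -0.60 ± 0.08 (SE, limma adjusted p = 0.00042) in bodies. ILMN_1230145, a brighter probe, read 2808 and 2466 units in control stem cells and 1558 and 1977 in deleted stem cells. Its log2 differences were -0.58 ± 0.13 (SE, limma adjusted p = 0.51) and, in bodies, -0.53 ± 0.10 (SE, limma adjusted p = 0.0035). The other three, ILMN_1221288, ILMN_1220029 and ILMN_2918469, differed by 0.39, 0.69 and -0.50 in stem cells and by 0.27, 0.47 and -0.24 in bodies. With an array left out, the stem cell difference ranged from 0.75 to 1.60 for ILMN_2476405 and from 0.50 to 0.88 for ILMN_1220029. For ILMN_1230145 it ranged from -0.76 to -0.41.

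**Figure D4:**
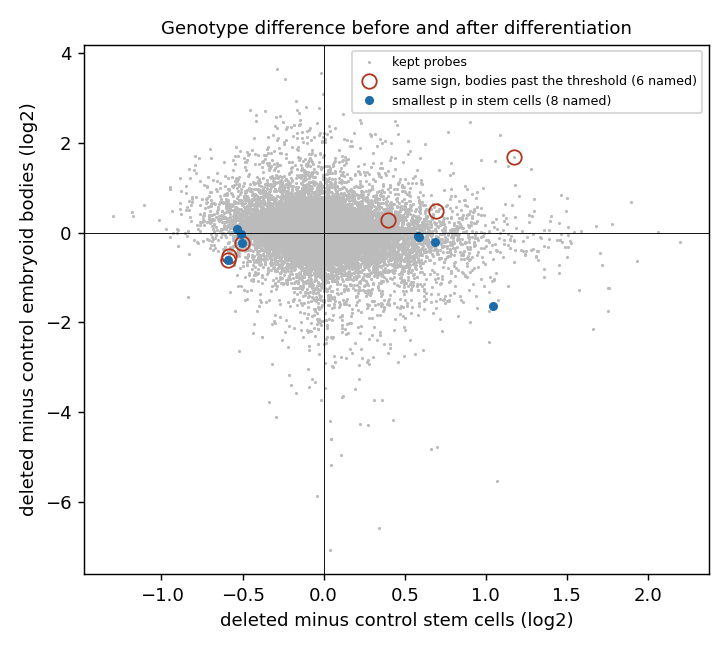
Deleted minus control difference in stem cells (horizontal) and in embryoid bodies (vertical), both log2, for 23268 kept probes (grey), the 8 probes with the smallest stem cell p (filled) and the 6 named for a shared sign (rings). ILMN_3143078 lies at 1.05 and -1.63 and ILMN_2476405 at 1.17 and 1.68.

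**Figure D5:**
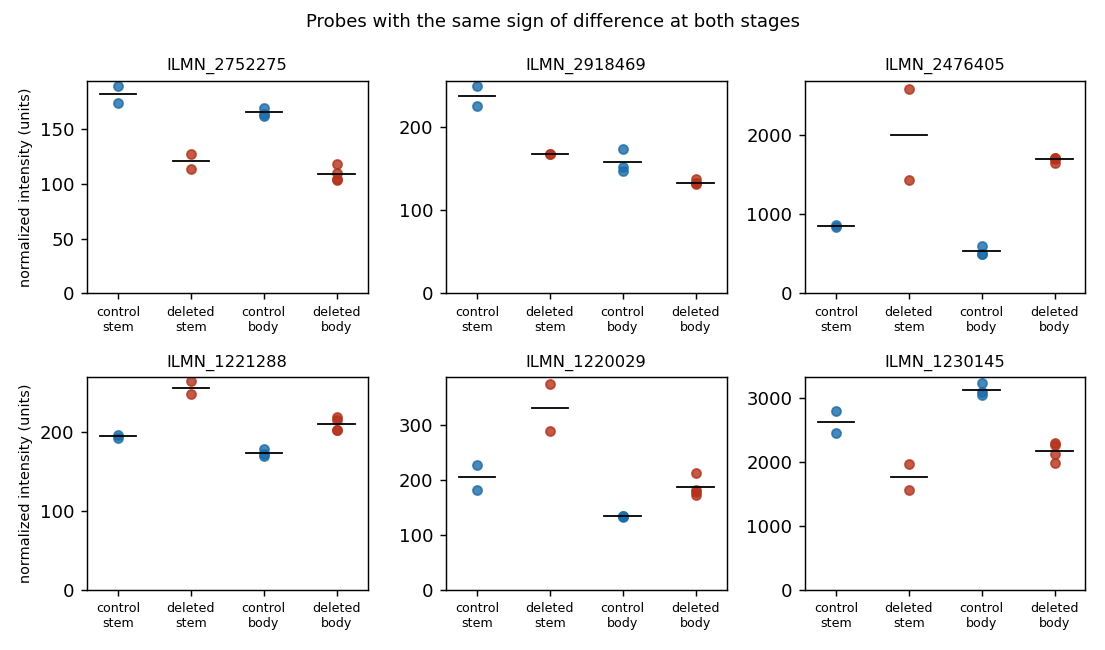
Normalized intensity on each of the 11 arrays (points, blue for control and red for deleted) with group means (lines) for the 6 probes named for a shared sign, the vertical axes starting at 0. Deleted samples lie apart from control samples at both stages, as for ILMN_2752275 at 114 to 128 against 174 to 190 units in stem cells.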

How the data were processed

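RNA from 11 samples was measured on 1 Illumina MouseWG-6 bead array each. The authors deposited probe intensity values that are not normalized between arrays, made with GenomeStudio per the labels and the design text, and detection p-values that the deposited table gives beside each intensity. Per the submitters' processing notes, limma was used. Background subtraction before export is not stated in the sources used. All 22 columns matched 1 sample title each.

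Here intensities were quantile normalized over 11 arrays and log2 transformed, and 23268 of 45281 probes were kept, those detected at p under 0.05 on 2 or more arrays. With limma 3.58.1 (R 4.3.3), 4 group means were fitted together, with Benjamini-Hochberg adjustment over all kept probes and a threshold of 0.05. The shared spread was needed because each stem cell group holds 2 arrays. The fit was run on simulated data with independent noise of the same size on every array for each probe. That setting held no array that stands apart, so it does not test the fit under that feature of these data. Alternatives were median scaling, neqc, other detection filters, stem cell arrays alone, the replicate number as a block, trended robust moderation, array weights and each array left out. 

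Named probes were the 6 largest differences per direction among non-overlapping probes detected at 0.01 on both arrays of the higher line, the 4 smallest p per direction, the 3 widest per direction within the deleted pair and 2 within the control pair, up to 3 per direction detected in 1 line only, and up to 3 per direction with the smallest stem cell p and the same sign as a call in embryoid bodies. Probes outside this rule were chosen after their values were seen. The comparison and these rules were set with earlier results of these data known. Gene lists were not used here because the files pair no probe with a gene, and no probe sequence is printed.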

Additional observations from a re-analysis of the deposited data

Results flagged for a closer look

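For 8 of the 38 named probes the genotype difference in embryoid bodies differed from that in stem cells by limma's interaction test (adjusted p under 0.05), as it did for 11.6% of all kept probes. All were named for their stem cell difference, so this test shares the arrays that chose them and is not independent of the choice. On the log2 scale the interaction was -2.56 for ILMN_1246058, -3.00 for ILMN_2691187, -2.67 for ILMN_3143078, -0.89 for ILMN_2980661, -0.69 for ILMN_1213736 and -0.66 for ILMN_2739760. The body arrays did not detect ILMN_2739760 (0 of 7), and no deleted body array detected ILMN_1213736 or ILMN_2980661, at a detection p under 0.05. Their body difference is bounded by background, so for these probes the test does not show that the genotype difference changed with stage. The interaction was 0.49 for ILMN_3133835 and 0.61 for ILMN_2546888.

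In deleted embryoid bodies, the only group of at least 4 arrays, 4 of the 38 named probes had 1 array far from the others, where chance gives about 1 in 20. The gap divided by the range was 0.891 for ILMN_2846865, where the highest array read 278 units and the others 132 to 148. It was 0.885 for ILMN_1219935, with 321 units against 256 to 264, and 0.923 for ILMN_2659651, with 129 against 115 to 116. For ILMN_2739760 it was 0.831, with 117 units against 109 to 110, all undetected.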

How the results depend on the processing

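No adjusted call between stem cell groups appeared under median scaling, neqc, other filters, stem cell arrays alone, a replicate block, trended robust moderation or array weights. Array weights were equal within each stem cell pair, at 1.01 for control and 0.683 for deleted arrays. They could not set deleted replicate 1 apart from its partner. Leaving out each of the 11 arrays gave 0 to 496 calls, above 0 only without deleted or control stem cell replicate 2. The 2091 probes at unadjusted p under 0.05 became 1393 under median scaling, 3349 with no detection filter (more probes tested), 1124 in stem cell arrays alone, and 579 to 4034 with an array left out. The correlation of the replicate differences of the 2 stem cell pairs was -0.02 across probes. Yet the second principal component of the stem cell arrays, with 26.6% of the variance, parted them by replicate number. Control and deleted replicate 1 lay at 19.9 and 10.5 on it, and control and deleted replicate 2 at -12.2 and -18.2. The correlation alone therefore cannot show whether replicate numbers pair the samples. With the replicate block there were 1105 such probes in stem cell arrays alone and 1669 over all arrays, and 122 of 313 rising (39.0%) and 13 of 44 falling probes (29.5%) in place of 191 and 30, against 9.92% and 9.63% of all probes. Probes bounded within 2-fold numbered 14044 with neqc, 43169 with no filter and 18582 to 21100 with an array left out.

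Of the probes apart within the deleted pair, 321 rose and 4 fell under median scaling and 733 and 263 with neqc, in lists of 569 and 7 and of 1227 and 559 probes. With an array left out, 139 to 193 rose and 18 to 30 fell. The standard deviation within the deleted pair was 0.561 with neqc, 0.251 with no filter and 0.374 with the stricter filter, and within the control pair 0.461, 0.200 and 0.287. The cause of these shifts was not tested, except that dim probes differ least.

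All 38 named probes kept their sign of genotype difference under the 9 alternatives that kept every group's arrays or the stem cell arrays. Only median scaling and neqc could have changed a sign, because the other alternatives left each probe's stem cell difference unchanged. With an array left out, the largest difference of a named probe was 3.05, for ILMN_1244312 without deleted stem cell replicate 2. It was 2.06 in the main fit. Most of the 38 probes were named on these same arrays, so such shifts are not independent of the choice. With an array left out, signs turned for 5 probes named for a spread within a pair. Their log2 ranges were -0.28 to 2.56 for ILMN_1252076, -0.99 to 0.57 for ILMN_2942011, -1.29 to 0.12 for ILMN_1377923, -0.40 to 0.98 for ILMN_2999627 and -1.67 to 0.042 for ILMN_1219935. Probes near background limit what can be seen, since their differences are compressed.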

Other observations

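Among the 14 probes on which both deleted stem cell arrays were at least 2-fold above the control mean, ILMN_1228942 had the closest deleted values, at 1204 and 1205 units, with 419 and 842 in control stem cells. It was chosen after its values were seen. Its log2 difference in stem cells was 1.02 ± 0.26 (SE, limma adjusted p = 0.51) and 1.03 without deleted replicate 1. With deleted values this close, leaving 1 of them out could hardly move the difference. Between the replicates numbered 2 the probe's log2 difference was 0.52. In bodies it read 1093 to 1212 units in control samples and 181 to 236 in deleted samples, a difference of -2.44 ± 0.20 (SE, limma adjusted p = 3.0e-05).

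The 3 probes at least 2-fold apart between the replicates numbered 2 were ILMN_2918479, ILMN_1244312 and ILMN_1246073, also named after their values were seen. The last read 1103 units on control replicate 2 and 537 on deleted replicate 2, but 979 and 1242 on the replicates numbered 1, so the lines overlapped. In bodies it read 370 to 423 units in control and 938 to 1821 in deleted samples, a log2 difference of 1.87 ± 0.28 (SE, limma adjusted p = 0.0012).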
